A study of Mus musculus with 10 samples.

Results

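The comparison concerned H3K27me3, the trimethylation of lysine 27 on histone H3, in mouse bone marrow-derived macrophages stimulated with IL-4 (M2), with and without the stress kinase PERK. Its members were 4 of the 10 libraries of the series: 2 from wild type (WT) cells, which were Eif2ak3 fl/fl, and 2 from knockout (KO) cells, which were Eif2ak3 fl/fl x LysMcre, all on the C57BL/6 strain. Both genotypes therefore carried the floxed allele of Eif2ak3, the gene of PERK, and only KO cells carried Cre, which is driven by the lysozyme M gene of myeloid cells, so deletion depends on that promoter having been active in each cell. Marrow cells had 7 days with M-CSF at 20 ng/ml, the growth factor of macrophages, and then 24 h with IL-4 at 20 ng/ml. The design text calls the replicates biological, and p-values measure the spread between such cultures. In the main limma fits that spread was pooled over features of like level, not taken from each gene or domain alone. Unstimulated libraries (M0, 1 per genotype) and libraries stimulated with LPS and interferon-gamma (M1, 2 per genotype) are used only to place the M2 values.

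H3K27me3 is laid down by Polycomb repressive complex 2 and read by Polycomb complexes that contain CBX proteins; it marks silent genes, above all developmental regulators, often as broad domains. PERK is a sensor of stress in the endoplasmic reticulum that phosphorylates eIF2 alpha, which favours translation of the transcription factor ATF4 and of ATF4 targets, including enzymes of serine synthesis. IL-4 signals through STAT6 and drives the alternative macrophage programme with genes such as Arg1, Retnla and Mrc1.

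The Eif2ak3 gene was under no region in any of the 10 libraries, so the mark does not check the deletion, and genotypes rest on the labels. None of 26 macrophage identity genes and none of 21 housekeeping genes had 50% or more of its window (the gene body with 2 kb on either side) under regions in any M2 library. Of 39 Hox genes, which pattern the embryo, 35 and 38 passed this mark in the WT and 37 and 38 in the KO libraries. Hoxa9 was covered over 100% of its window in all 4.

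On the autosomes, regions covered 179.0 and 250.1 Mb in WT replicates 1 and 2 and 244.5 and 213.2 Mb in KO replicates 1 and 2. The genotypes overlapped in length, with a KO minus WT difference of 14.3 Mb (exact two-sided permutation p = 1, n = 2 each). The tags were denser in KO regions. Normalised tags per kb of region, a level per 10 megatags, were 18.9 and 22.5 in WT and 24.8 and 28.6 in KO. The KO libraries lay above both WT libraries by 6.05 tags per kb on average (exact permutation p = 0.333, n = 2 each, the smallest p that 2 against 2 can give). In such bulk samples more cells with the mark and more mark per cell cannot be told apart. The number of regions was 28658 and 33039 in WT and 34378 and 33339 in KO, again without overlap (exact permutation p = 0.333, n = 2 each), and their median widths were 2.71, 2.83, 2.61 and 2.39 kb. Depth ran from 14.2 to 20.9 megatags, highest in WT replicate 1 and lowest in KO replicate 2. The share of all tags inside regions followed the same order as the density, at 41.3%, 56.5%, 61.0% and 61.3%, and the part of this share in the density difference was not tested. WT replicate 1 stood apart: it had 52.9 Mb of regions on the X chromosome, holding 7.42% of its tags, against 0.813 to 0.990 Mb in the other M2 libraries, and the fewest autosomal regions. Without it the density difference was 4.25 tags per kb and the length difference -21.2 Mb, opposite in sign to that over all 4 libraries.

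**Figure D1:**
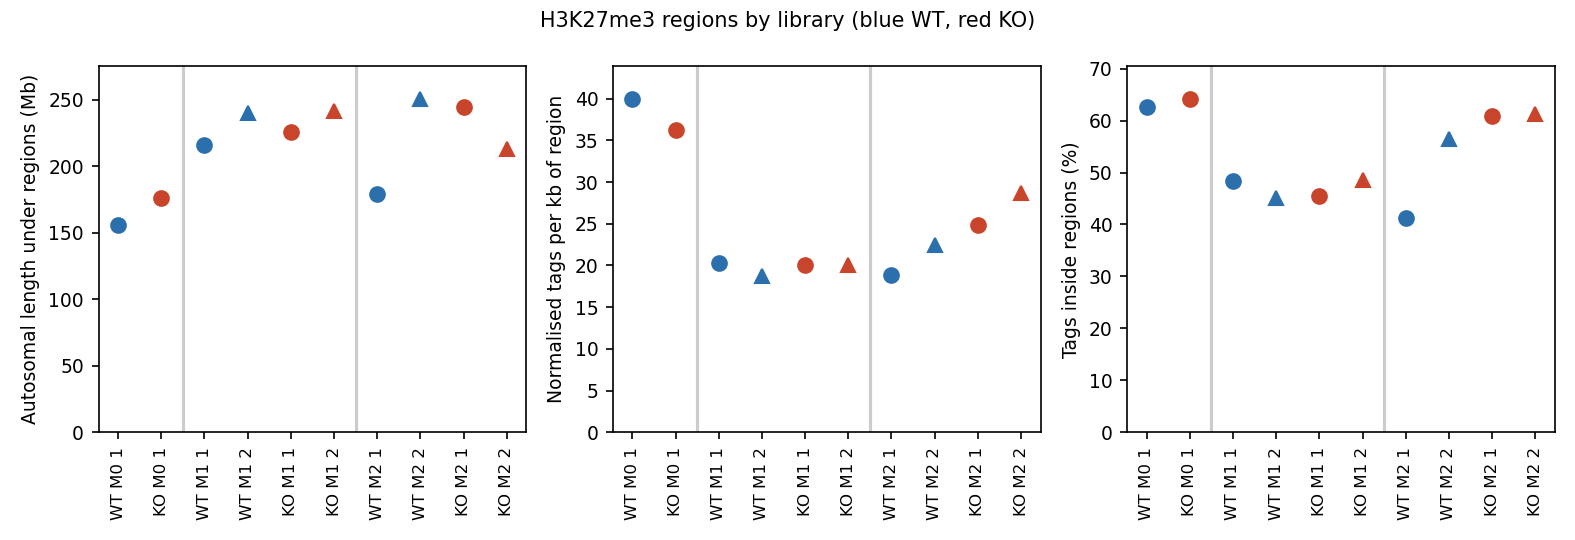
Autosomal length under regions (Mb), normalised tags per kb of region and share of tags inside regions (%) for each of the 10 libraries, with 1 point per library (blue WT, red KO, circles replicate 1, triangles replicate 2). In M2 the density rises from 18.9 and 22.5 in WT to 24.8 and 28.6 in KO, while covered length overlaps between genotypes.

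The place of the mark was largely shared. In 1 kb bins, called in a library when at least 50% lay under its regions, 311644 kb was called in any M2 library and 133423 kb (42.8%) in all 4. Bins called in both KO and neither WT library made up 13021 kb, or 4.18% of called bins, and bins called in both WT and neither KO library 11146 kb, or 3.58%. The largest group of bins missing from 1 library, 44576 kb, was missing from WT replicate 1. The similarity of libraries, given as the Jaccard index (shared over joint length), was 0.601 between the WT and 0.729 between the KO libraries. WT replicate 2 had 0.725 with KO replicate 1, above its value with the other WT library. Leaving out WT replicate 1 left 15000 kb of KO-only and 33927 kb of WT-only bins, leaving out WT replicate 2 gave 57597 and 24071 kb, leaving out KO replicate 1 gave 24314 and 25171 kb, and leaving out KO replicate 2 gave 32265 and 13574 kb. With the upper 50% of regions by score WT-only bins were the more numerous, with 15247 against 15006 kb.

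KO-only bins lay in gene bodies more often than WT-only bins, with 48.5% against 32.3%, beside 46.0% of the bins called in all 4. Within 5 kb of an annotated start lay 11.1% of KO-only, 7.90% of WT-only and 19.1% of shared bins. Both kinds were short and scattered: 9219 runs of up to 10 kb in KO and 6895 runs of up to 17 kb in WT. Of KO-only bins 60.3% and of WT-only bins 77.8% fell inside a domain (the union of overlapping M2 regions) that was called in all 4 libraries, beside 79.8% of all called bins. Among the longest KO-only runs were those within Plekha7 (9 kb), Anks6 (8 and 7 kb), Adarb1 (8 kb), P4ha2 (7 kb) and Lpin1 (7 kb). Of the 8 longest WT-only runs, 3 lay on chromosome 5 (91045001 to 91054000, 91175001 to 91186000 and 91208001 to 91217000, mm10). The first lay between Epgn and Ereg, which encode ligands of the EGF receptor, and the others lay beyond Ereg, which ends at 91093649.

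At the starts of 3 PERK-ATF4 targets, Chac1, Atf3 and Ddit4, cover was higher in both KO libraries, with 0% in both WT libraries at Chac1 and Atf3. Percentages are of a window from 2 kb before to 2 kb after the start. Ddit4, whose product restrains mTOR under stress, on chromosome 10 (59949675 to 59951770, minus strand), had 0% and 15.4% of this window under regions in WT and 92.6% and 84.9% in KO. Chac1, which degrades glutathione, had 0% in both WT and 48.1% and 31.8% in KO libraries. Atf3, a stress-induced transcription factor, had 0% in both WT and 30.3% and 28.6% in KO. In each of these 3 genes the KO libraries lay above both WT libraries. The M0 libraries were also covered there, with 92.0% (WT) and 84.2% (KO) at Ddit4, 44.5% and 67.5% at Chac1 and 32.0% and 46.6% at Atf3. The M1 libraries had 0% at Ddit4 and Chac1 in all but KO replicate 2 (21.9% and 32.0%), and 17.9% at Atf3 in WT replicate 1 alone. Of 28 genes of the PERK-ATF4 list with a start in the table, 9 had any cover at it, 4 had both KO above both WT, and none the reverse, beside 15.8% and 6.11% of the 5613 starts with any cover. Over the whole gene window the counts were 4 and 1 of 9, beside 27.9% and 9.97% of all genes with any cover. None of the 4 genes of the list that were tested passed limma, with a median log2 difference of 1.04 beside 0.64 over all 4850 genes tested. Chac1, and Aldh1l1, Cbx6, Cbx8 and Phf19 in what follows, were chosen after their values were seen.

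Of 30 serine and one-carbon genes 12 had any cover. Phgdh, the first enzyme of serine synthesis, had 0% and 57.7% of its start window covered in WT and 63.4% and 62.5% in KO, so that WT replicate 2 lay close to the KO libraries and WT replicate 1 apart. Aldh1l1, an enzyme of folate metabolism, had 0% in both WT and 75.1% and 63.1% in KO libraries. Psat1, the next enzyme of serine synthesis, was at 0% in all 4. Cbs, which uses serine to make cystathionine, had 23.7%, 70.8%, 75% and 67.8% of its gene window covered in WT replicates 1 and 2 and KO replicates 1 and 2, and the genotypes overlapped. Of 23 list genes with a start, 9 had any cover at it, 2 had both KO above both WT and none the reverse. Over the 5613 starts with any cover these shares were 15.8% and 6.11%. Over gene windows 4 of 12 did (33.3%), and none the reverse, beside 27.9% and 9.97% of all covered genes. The 5 tested genes had a median log2 difference of 1.06 and none passed limma.

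Of 22 genes of the H3K27 methylation machinery, 10 had no cover in any M2 library, among them Ezh1, Ezh2, Eed, Suz12, Ring1 and Rnf2, which encode core Polycomb subunits. In 18 of the 22 every M2 library had under 50% of the gene window covered. Cbx6, a chromodomain subunit of Polycomb repressive complex 1, had 0% of its start window covered in both WT libraries and 82.4% and 86.7% in KO. It was the only start of 5613 with any cover that had 75% or more in both KO and 0% in both WT libraries (0.0178%), and 2 starts, Olfr1446 and Vmn1r55, showed the reverse (0.0356%). Cbx8, another such subunit, had 39.2% and 56.9% in WT and 100% in both KO libraries. Its level over the gene window was 28.7 and 44.1 tags per kb in WT and 81.0 and 115.7 in KO, and it rose by a log2 value of 1.42 (limma adjusted p = 0.0239). The rise did not pass after quantile normalisation (limma adjusted p = 0.173). Phf19, an accessory subunit of Polycomb repressive complex 2, had 0% in WT and 27.1% and 42.2% in KO. Kdm6b, a demethylase of the mark, had 8.84%, 14.6%, 14.6% and 24.2% of its gene window covered, with WT replicate 2 and KO replicate 1 nearly equal. Of the 12 machinery genes with any cover 5 (41.7%) had both KO above both WT and none the reverse, beside 27.9% and 9.97% of all covered genes.

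The sequences before the starts of genes that differed by genotype are shown for their CG dinucleotides, which are dense in the CpG islands where Polycomb is known to gather. Each line gives the 250 bases before the start, 5′ to 3′ on the strand of the gene, from RefSeq on GRCm38.p6 (the assembly of mm10), with CG dinucleotides in capitals. The genes are Ddit4 (chr10:59951771-59952020, minus strand), Cbx6 (chr15:79834334-79834583, minus) and Ch25h (chr19:34475149-34475398, minus), more covered at the start in KO, and Chil4 (chr3:106219480-106219729, minus), Olfr1446 (chr19:12890576-12890825, minus) and Vmn1r55 (chr7:5147423-5147672, minus), more covered in WT. The start window of Chil4 had 63.5% and 8.4% in WT and 4.2% and 4.05% in KO, so its place rests mainly on WT replicate 1.
Ddit4: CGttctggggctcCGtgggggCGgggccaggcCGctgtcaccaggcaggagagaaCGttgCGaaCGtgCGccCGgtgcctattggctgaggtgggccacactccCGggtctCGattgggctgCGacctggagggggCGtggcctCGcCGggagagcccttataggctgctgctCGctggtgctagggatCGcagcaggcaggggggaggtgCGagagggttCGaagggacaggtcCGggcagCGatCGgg
Cbx6: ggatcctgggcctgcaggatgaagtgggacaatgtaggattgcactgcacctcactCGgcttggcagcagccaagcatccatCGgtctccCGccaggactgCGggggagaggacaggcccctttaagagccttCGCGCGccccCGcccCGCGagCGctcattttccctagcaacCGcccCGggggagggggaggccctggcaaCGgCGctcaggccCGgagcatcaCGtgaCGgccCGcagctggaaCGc
Ch25h: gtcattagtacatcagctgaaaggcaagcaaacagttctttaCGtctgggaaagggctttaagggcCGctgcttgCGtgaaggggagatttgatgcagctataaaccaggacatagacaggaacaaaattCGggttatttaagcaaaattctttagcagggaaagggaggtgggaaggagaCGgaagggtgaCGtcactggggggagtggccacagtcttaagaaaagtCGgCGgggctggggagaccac
Chil4: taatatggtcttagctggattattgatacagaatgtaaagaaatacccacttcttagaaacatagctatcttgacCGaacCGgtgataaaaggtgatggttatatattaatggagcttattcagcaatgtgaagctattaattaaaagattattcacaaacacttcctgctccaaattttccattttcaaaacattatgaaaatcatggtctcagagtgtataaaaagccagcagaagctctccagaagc
Olfr1446: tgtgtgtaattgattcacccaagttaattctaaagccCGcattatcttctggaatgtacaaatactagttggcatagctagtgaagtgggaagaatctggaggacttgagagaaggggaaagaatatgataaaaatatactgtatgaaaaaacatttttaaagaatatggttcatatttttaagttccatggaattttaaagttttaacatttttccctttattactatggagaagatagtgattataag
Vmn1r55: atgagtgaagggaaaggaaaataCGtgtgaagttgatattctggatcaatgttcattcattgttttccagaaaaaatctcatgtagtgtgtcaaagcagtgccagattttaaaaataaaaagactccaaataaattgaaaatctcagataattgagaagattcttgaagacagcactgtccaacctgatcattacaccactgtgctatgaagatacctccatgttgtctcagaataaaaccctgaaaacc

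Ddit4 and Cbx6 had 22 and 20 CG dinucleotides in these bases and Ch25h 8, beside a median of 10 and quartiles of 3 and 19 over 16457 starts. Chil4 had 2, and Olfr1446 and Vmn1r55 1 each. Other genes with higher cover or level in KO varied widely. Il4 had 0, Ccr8 1, Krt5 2, Aldh1l1 and Phgdh 7, and Boll and Slc46a1 11. Chac1 had 15, Cbx8 22, Atf3 24 and Hoxa5 28. Of other genes with more cover in WT, Olfr1442 had 0 and Hba-a1 4. A split by CG content was not tested on these examples. Over the gene sets separated by genotype (defined below), the median number of CG in 300 bases around the start was 7 for genes with more cover in KO, 1 for those with more in WT and 13 for all covered genes. These medians leave out genes without a start in the table. A start was there for 80.2% of the KO set, 74.4% of the WT set and 77.1% of all covered genes. The difference in CG was not tested.

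Chac1 (chr2:119350992-119351241, plus strand) and Atf3 (chr1:191183334-191183583, minus strand) are shown for a second reason. Each holds 1 match to TGATGNAA, a form of the element that ATF4 with C/EBP proteins is known to bind, searched on both strands and given in capitals.
Chac1: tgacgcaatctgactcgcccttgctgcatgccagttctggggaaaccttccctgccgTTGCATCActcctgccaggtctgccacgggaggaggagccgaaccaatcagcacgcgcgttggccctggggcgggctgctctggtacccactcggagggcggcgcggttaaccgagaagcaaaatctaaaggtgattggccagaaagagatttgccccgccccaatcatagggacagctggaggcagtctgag
Atf3: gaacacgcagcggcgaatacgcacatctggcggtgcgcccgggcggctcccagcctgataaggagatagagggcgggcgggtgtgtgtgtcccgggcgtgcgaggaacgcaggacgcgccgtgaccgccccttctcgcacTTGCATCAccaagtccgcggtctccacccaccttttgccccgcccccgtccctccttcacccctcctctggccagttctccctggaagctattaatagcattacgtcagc
The matches begin at positions -193 and -110 from the start and read on the opposite strand. A match was present in 7 of 28 starts of the PERK-ATF4 list, a list that was drawn up from known ATF4 targets, and in 2.95% of all 16457 starts. Ddit4 had none in these bases. A match describes the letters and not a bound site.

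**Figure D2:**
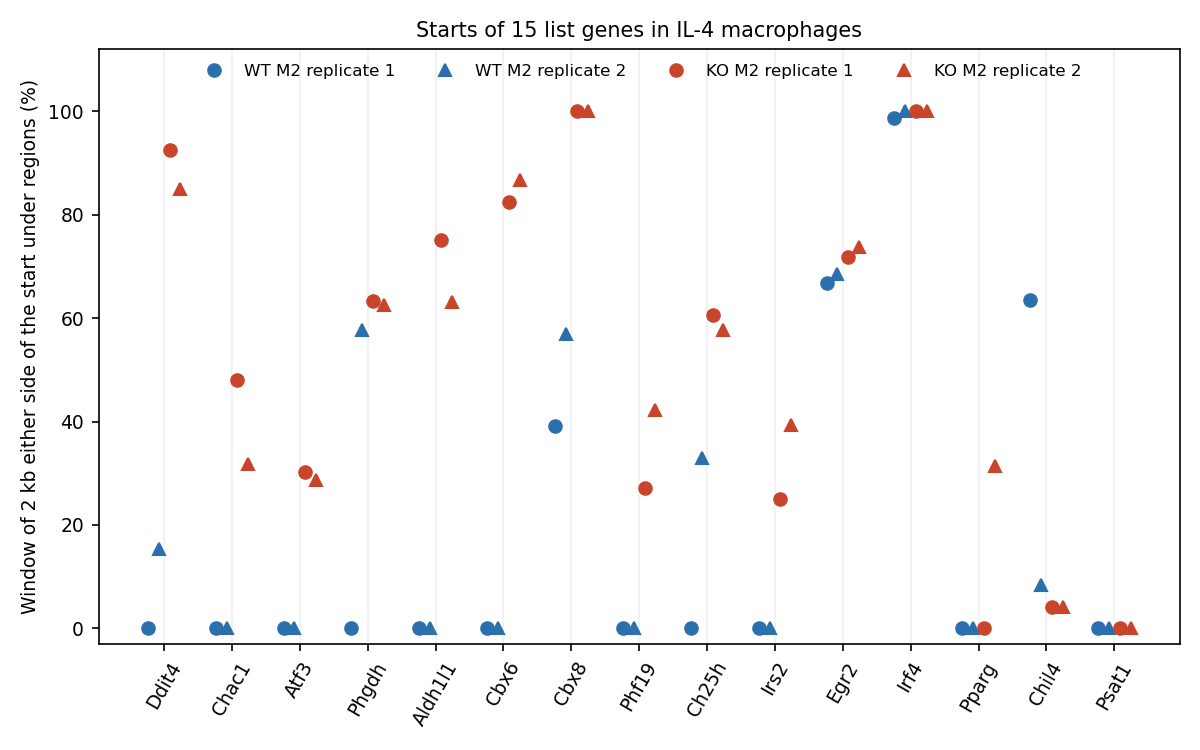
Share (%) of the window of 2 kb on either side of the start under regions for 15 list genes, with 1 point per M2 library (blue WT, red KO, circles replicate 1, triangles replicate 2). Ddit4 (92.6% and 84.9%) and Cbx6 (82.4% and 86.7%) were covered in KO with little or no cover in WT, and Irf4 and Psat1 did not separate.

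Of 39 IL-4 effectors and transcription factors, 23 had some cover and 16 had none in any M2 library, among them Arg1, Retnla and Mrc1 at 0%. The number with 50% or more of the window covered was 4 and 5 in WT and 6 and 7 in KO. Over all genes it was 2315 and 3301 in WT and 3397 and 3181 in KO. Mean cover of the list was 16.4% and 20.1% in WT and 20.2% and 19.8% in KO. Irf4, a transcription factor of the programme, kept 98.8% to 100% of its start window and 22.4% to 23.7% of its gene window under regions in the 4 libraries. Pparg, a nuclear receptor of the programme, was at 0% in all but KO replicate 2, where 31.5% of the start window was covered. Ch25h, which makes 25-hydroxycholesterol, had 0% and 24.6% of its gene window covered in WT and 45.2% and 43.1% in KO. Egr2, an IL-4 induced transcription factor, had 43.5% and 46.6% in WT and 51.7% and 59.1% in KO. In both genes KO lay above WT, and M0 stood at 44.9% and 46.4% for Ch25h and 78.5% and 73.3% for Egr2.

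Chil4, a chitinase-like protein secreted by IL-4 treated macrophages, ran the other way. It had 78.6% and 49.1% of its window covered in WT and 4.55% in both KO libraries (chromosome 3, 106201491 to 106219479), a log2 difference of -2.73 that did not pass (limma adjusted p = 0.0569). Its neighbour in family, Chil3, had 47.7% and 5.21% in WT and 0% and 2.44% in KO, so the WT value rested mainly on replicate 1. M0 had 0% at both genes. Of the 23 IL-4 genes with any cover, 5 had both KO above both WT and 4 the reverse, or 21.7% and 17.4%, beside 27.9% and 9.97% of all covered genes. None of the 14 tested passed limma, and their median log2 difference of 0.67 stood beside 0.64 over all genes. Nos2, the nitric oxide synthase of inflammatory macrophages, had 74.7% to 83.6% and overlapped between genotypes, and Socs3, a feedback inhibitor of cytokine signalling, had 29.8% and 68.0% in WT and 57.8% and 55.4% in KO.

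The level of the mark was then compared in domains called in all 4 libraries, 13354 of 42971. The median level was 14.5 and 17.1 tags per kb in WT and 18.1 and 19.2 in KO. Both KO levels lay above both WT levels in 61.3% of domains, and the reverse held in 1.95%. The median log2 difference was 0.27, and changes at single domains are to be read against that shift. The shift grew with the level of the domain, with medians of 0.12, 0.19, 0.33 and 0.55 from the lowest to the highest of 4 equal classes of domains. By width the range was narrower, from 0.24 to 0.33. A level counts only tags inside called regions, so the calling threshold of each library limits how low it can be. That threshold was 27 and 24 tags in WT and 25 and 21 in KO, before scaling for depth. Median levels in the lowest class were 13.0 and 13.9 in WT and 14.2 and 15.1 in KO. The classes were cut on a mean that includes the KO libraries. The part of these limits in the growth with level was not tested. Tested with limma, 45 domains rose in KO (0.337% called) and 0 fell (0% called), with 2855 and 21 at an unadjusted p under 0.05. After centring each library on its median 2 rose and 0 fell, and after quantile normalisation 0 rose and 1 fell. The result also depended on single libraries. The median log2 difference was 0.15 without WT replicate 1 and 0.37 without WT replicate 2. It was 0.32 without KO replicate 1 and 0.21 without KO replicate 2. Without KO replicate 2, or without either WT library, the called domains were no longer all higher in KO. In the leave-out fits the lone library of a genotype is assumed to vary like the others, and limma gave domains of like level a common spread.

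The 45 domains had log2 differences from 0.59 to 1.55 and a median width of 4.71 kb, 32 of them lay over a gene, and all 45 had both KO levels above both WT levels. The smallest p belonged to a domain on chromosome 13 (32799595 to 32803758) overlapping Mylk4, a myosin light chain kinase, and Wrnip1, a DNA repair ATPase. It had 10.4 and 14.7 tags per kb in WT and 25.4 and 38.3 in KO, a log2 difference of 1.34 ± 0.23 (SE; limma adjusted p = 9.08e-05). A domain at Boll, a germ cell RNA-binding protein (chromosome 1, 55359227 to 55366310), had 18.0 and 17.7 in WT and 49.7 and 54.9 in KO, a log2 difference of 1.55 ± 0.31 (limma adjusted p = 0.00204). These were the 2 domains that also passed after centring (limma adjusted p = 0.0319 and 0.0151). One domain covered parts of Mgat4e and Kdm5b, a demethylase of histone H3 lysine 4, with 13.5 and 16.2 in WT and 27.2 and 47.9 in KO, and one lay in Kdm2a, a CpG-binding histone demethylase, with 14.6 and 14.5 against 23.4 and 44.1. Others among the 10 with the smallest p lay at Sorcs1, a sorting receptor (14.7 and 12.5 against 25.5 and 32.2), and Cyp2r1, the vitamin D 25-hydroxylase (13.7 and 12.7 against 21.5 and 30.7). The remaining 4 lay over no protein-coding gene, nearest to Dynlt1a, Rhou, LOC108167320 and Peli2. In all 10 the genotypes did not overlap. One of the 45, on chromosome 17 (39842601 to 39849327), had levels from 501 to 1686 tags per kb, far above the rest. It was also very high in M1 (360 to 661) and M0 (3747 in WT and 2640 in KO), so such a level was not particular to M2. Its log2 difference was 0 after quantile normalisation.

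The domain that passed after quantile normalisation lay over Elobl, an elongin B-like gene, on chromosome 11 (88963257 to 88971606). It had 113 and 125 tags per kb in WT and 65.6 and 71.4 in KO, and a log2 difference of -0.80 before that scaling (limma adjusted p = 0.256, and 0.000998 after it). Cover of the same gene went the other way, at 35.8% and 40.6% of the window in WT and 90.5% and 77.0% in KO.

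**Figure D3:**
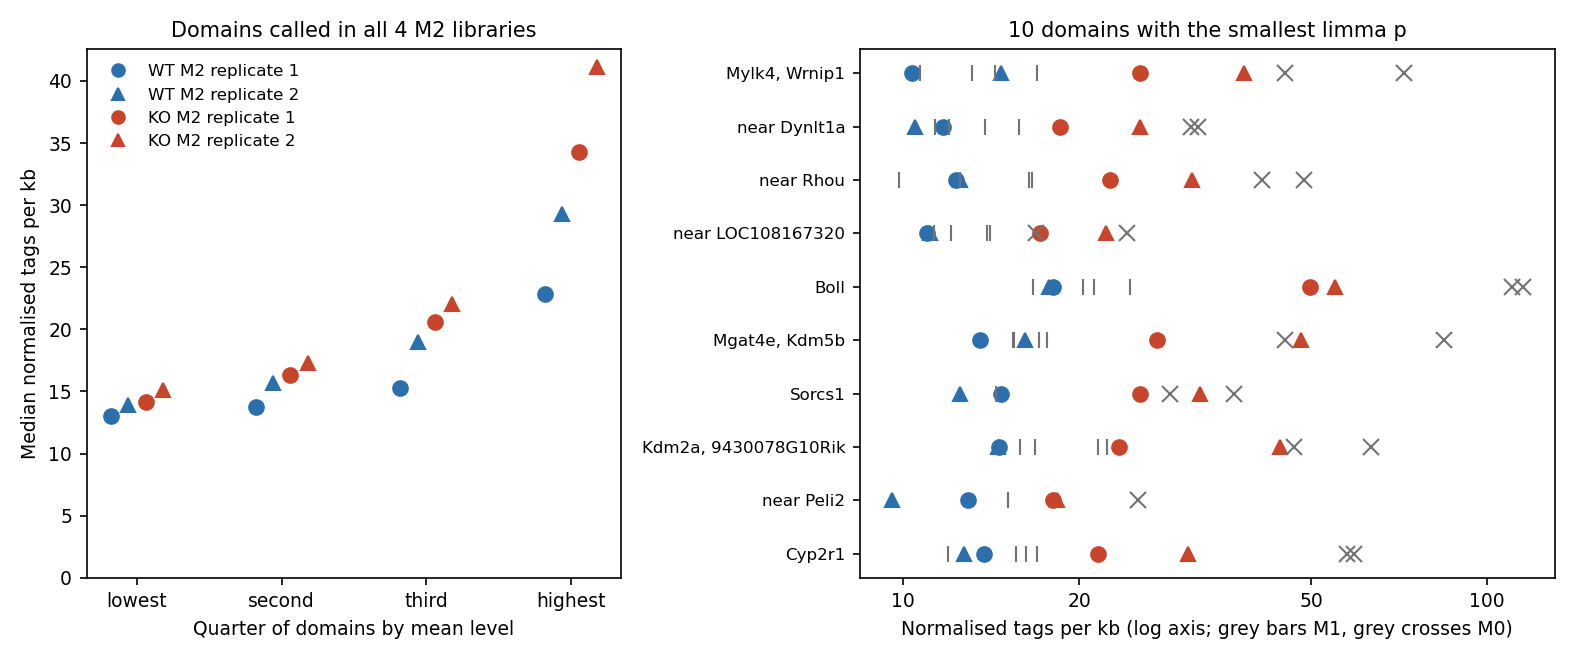
Left, median normalised tags per kb of domains called in all 4 M2 libraries, in 4 equal classes of mean level, with 1 point per library. Right, levels on a log axis at the 10 domains with the smallest limma p (blue WT M2, red KO M2, grey bars M1, grey crosses M0). Every M1 level shown lies below both KO M2 levels, and every M0 level shown lies above both WT M2 levels. Boll had 18.0 and 17.7 in WT and 49.7 and 54.9 in KO. The domains were chosen by their M2 levels, and some M0 and M1 libraries have no level at some of them.

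Gene windows were counted as separated when the lower library of one genotype had at least 25 percentage points more cover than the higher library of the other. This held for 81 genes with more cover in KO, or 0.907% of the 8930 genes with any cover, and for 43 with more in WT, or 0.482%. The rule used these libraries, so the values are a description. Leaving out WT replicate 1 gave 85 and 122 genes, WT replicate 2 gave 1204 and 98, KO replicate 1 gave 172 and 133, and KO replicate 2 gave 192 and 50. The gap was largest in kb at Ccdc85c, with 25.3% and 36.3% in WT and 68.9% and 72.8% in KO. Anks6, a ciliary protein, had 10.1% and 19.3% against 59.3% and 67.1%, and Lama5, a laminin chain of basement membranes, had 17.1% and 35.2% against 61.8% and 70.1%. P4ha2, a collagen prolyl hydroxylase, had 16.3% and 58.2% against 100% and 95.3%, with the WT libraries far apart. Togaram2, Trim71, Abcb9, Tas1r2, Neu2, Myo1a, Cdh16 and Plcd1 were the others of the 12 with the largest gap, counting 1 gene per run of neighbouring genes. WT replicate 1 was the lower WT library at all 12. With the upper 50% of regions by score alone, the mean difference of these 12 genes ran from 2.43 points at Plcd1 to 58.2 at Abcb9. It was 11.1 in place of 40.0 points at Ccdc85c, 3.48 in place of 39.8 at Lama5 and 16.3 in place of 60.4 at P4ha2.

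Il4, Il13, Ccr4, Ccr8 and Krt17 were also among the 81 and were chosen after their values were seen. Il4 had 12.3% and 29.4% of its window covered in WT and 73.9% and 71.7% in KO, and its neighbour Il13 had 34.7% and 68.4% against 100% and 95.0%. The chemokine receptors Ccr4 (11.9% and 49.4% against 86.7% and 80.2%) and Ccr8 (19.5% and 32.8% against 59.9% and 68.6%), both found on type 2 helper T cells, showed the same order. Of the epithelial keratins, Krt5 had 0.0712% and 69.9% in WT and 100% in both KO libraries, and Krt17 had 9.75% and 11.3% against 61.7% and 67.6%. Both KO lay above both WT in 29.8% of covered interleukin and receptor genes, 28% of chemokine and receptor genes and 31.6% of keratins. The reverse held in 4.26%, 12% and 0%. Over all covered genes the shares were 27.9% and 9.97%. Hoxa5, a homeobox gene, had 27.9% and 70.1% against 95.8% and 100%.

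Of the 43 genes with more cover in WT, 11 were olfactory receptors and 1 a vomeronasal receptor, against 5 and 0 of the 81 and 164 of both kinds among the 8930 genes with any cover. The difference was not tested. Gad2, an enzyme that makes GABA, had 79.2% and 75.7% in WT and 46.5% and 31.9% in KO. Pcsk1, a prohormone convertase, had 64.7% and 45.7% against 12.7% and 10.3%, Trpc1, a cation channel, 60.8% and 51.0% against 25.8% and 20.7%, and Ereg, an EGF receptor ligand, 100% in both WT against 54.2% and 39.8%. Epgn, beside Ereg, had 77.8% and 58.0% against 20.1% and 0%. The alpha globin Hba-a1, a red cell gene, had 100% in both WT against 66.2% and 61.9%. With the upper 50% of regions by score alone, the sign turned at Ereg (32.7 points higher in KO) and Hba-a1 (4.75 points), and Gad2 was at -8.09 in place of -38.3 points. Gm4952, Adam24, Fmo9, Hrg and Fam216b also belonged to the 12 with the largest gaps in kb, counting 1 gene per run of neighbouring genes, which leaves out Glyat beside Gm4952 and Epgn beside Ereg. Olfr1425, Olfr1442, Olfr1443, Olfr1446 and Olfr1448 lie near each other on chromosome 19. Epgn, Olfr1443 and Olfr1448 were chosen after their values were seen.

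**Figure D4:**
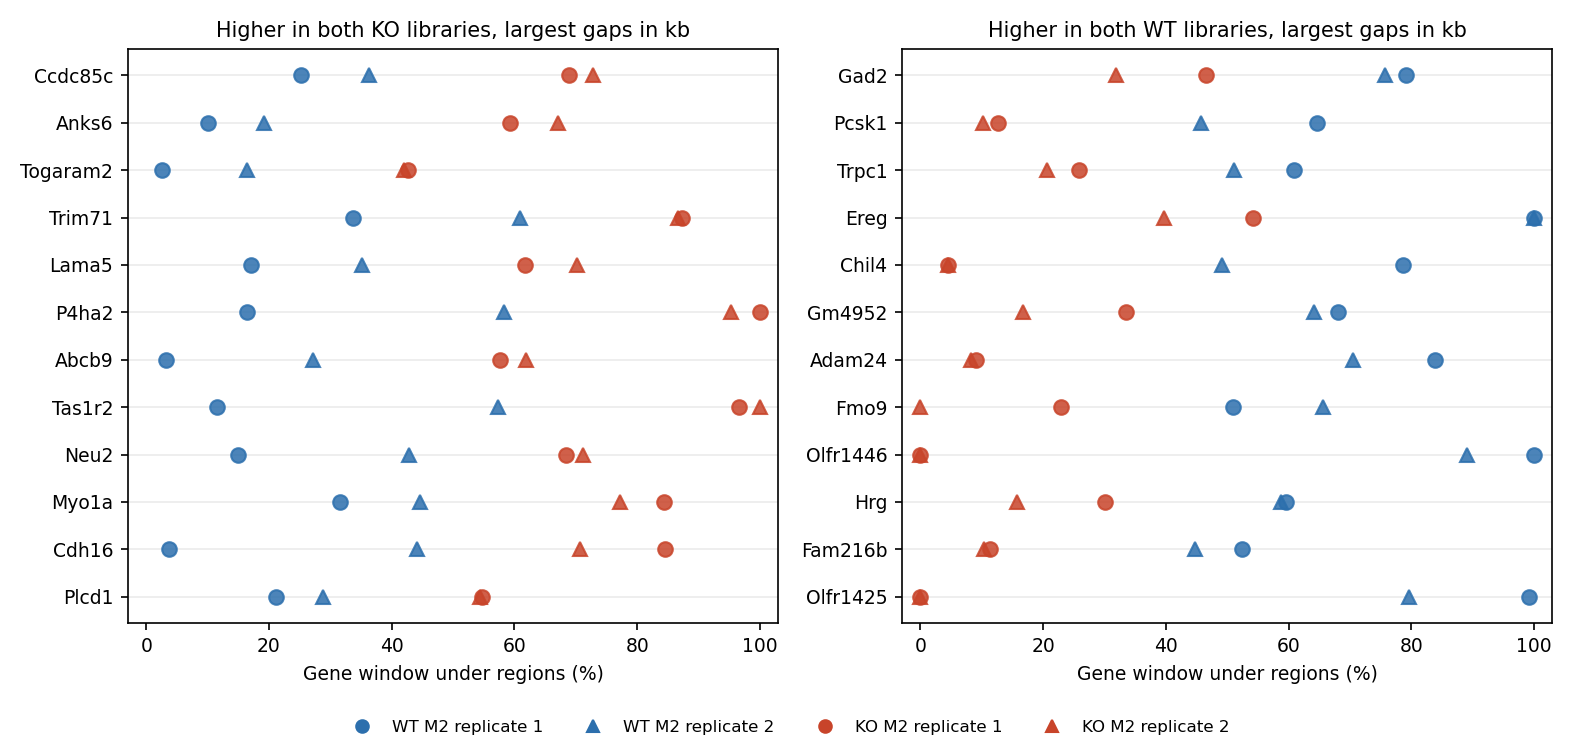
Share (%) of the gene window under regions for the 12 genes with the largest gap in kb in each direction (1 gene per run of neighbouring genes), with 1 point per M2 library (blue WT, red KO, circles replicate 1, triangles replicate 2). Ccdc85c runs from 25.3% in WT replicate 1 to 72.8% in KO replicate 2, and Olfr1446 and Olfr1425 are at 0% in both KO libraries.

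Tested across 4850 gene windows with limma on log2(tags per kb + 1), a scale that understates changes of low genes, 34 genes rose in KO (0.701% called) and 4 fell (0.0825% called). The median log2 difference of all tested genes was 0.64. After quantile normalisation 0 genes passed, and 0 passed without KO replicate 1 or without KO replicate 2. Without WT replicate 1 the counts were 192 and 36, and without WT replicate 2 they were 3599 and 81. In 33 of the 34 the KO levels lay above both WT levels, but in 31 the level of WT replicate 1 was under 50% of that of WT replicate 2, and in 15 it was 0, and the part of that library in these calls was not tested. Genes of like level were given a common spread by limma, so the distance between the WT libraries at a single gene is not weighed in its p. Mfng, a Fringe glycosyltransferase that modifies Notch, had 0 and 26.6 tags per kb in WT and 50.7 and 53.8 in KO (log2 difference 3.34, limma adjusted p = 1.12e-08). Slc46a1, the proton-coupled folate transporter, had 0 and 0.979 against 14.6 and 15.6 (3.52, limma adjusted p = 0.00533), and Ly6g6e had 0 and 0.148 against 13.8 and 12.3 (3.71, limma adjusted p = 0.00533). In both, the WT libraries lay close together and far below KO. Hoxa5 had 14.1 and 49.9 against 74.2 and 96.7 (1.63, limma adjusted p = 0.00644). Rin1, Pnpla5, Spem1, Prss38, Defb25 and C1qtnf6 completed the 10 rising genes with the smallest p. The 4 genes that fell were Olfr1446, Olfr1425, Olfr1442 and Vmn1r55. Olfr1446 had 15.1 and 12.4 tags per kb in WT and Vmn1r55 17.2 and 9.25, and both were under no region in either KO library (limma adjusted p = 0.00533 for both), so no fold is given.

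The libraries of the other states place these differences. The M0 and M1 values took no part in choosing the genes, while the M2 values they are set beside did. Genes chosen for low or high cover in WT M2 favour other libraries lying above or below it, and likewise for KO M2. The shares over all covered genes are therefore no matched baseline. Genes with more cover in KO M2 had on average 59.1% (WT) and 63.5% (KO) of the window covered in M0 and 32.0% to 46.9% in M1, beside 14.9% and 33.1% in WT M2 and 73.0% and 70.2% in KO M2. Both M0 libraries lay above both WT M2 libraries at 68 of the 81, or 84.0%, against 25.7% of all genes with any cover. Genes with more cover in WT M2 had 13.7% and 17.2% in M0 and 69.6% to 84.4% in M1. Both M0 libraries lay below both WT M2 libraries at all 43, against 25.7% of all covered genes. Both M0 libraries were at 0% at 16 of the 43 (37.2%), against 9.14% of all covered genes. All 4 M1 libraries lay below both KO M2 libraries at 59 of the 81 (22.1% of all covered genes) and above both at 30 of the 43 (8.96% of all covered genes). Of KO-only bins 47.4% and 61.0% were called in M0 and 25.6% to 41.8% in M1, beside 47.8% and 53.0% in M0 and 65.8% to 71.5% in M1 for all called bins. The M0 shares of KO-only bins were thus near those of all bins. Of WT-only bins 1.59% and 1.81% were called in M0 and 59.1% to 77.1% in M1.

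Of the 45 domains that rose, the 42 that were called in both M0 libraries all had M0 levels above both WT M2 levels, and 33 had them above both KO M2 levels (78.6%), beside 83.3% and 65.1% over all domains. These 45 were also chosen by their M2 levels, so all domains are no matched baseline. At Boll, M0 had 115 and 110 tags per kb and M1 16.7 to 24.4. The Jaccard index with the M0 library of the same genotype was 0.462 and 0.504 for the WT M2 and 0.591 and 0.661 for the KO M2 libraries. With the WT M0 library it was 0.553 and 0.625 for KO, still above both WT values. The M0 libraries also had a larger share of tags in regions (62.6% and 64.1%, against 45.0% to 48.5% in M1), a longer estimated fragment (352 and 372 bp, against 178 to 190 bp) and denser regions. The share of tags in regions was 61.0% and 61.3% in KO M2, closer to M0 than in WT M2. The part of these library properties in the likeness of KO M2 to M0 was not tested.

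**Figure D5:**
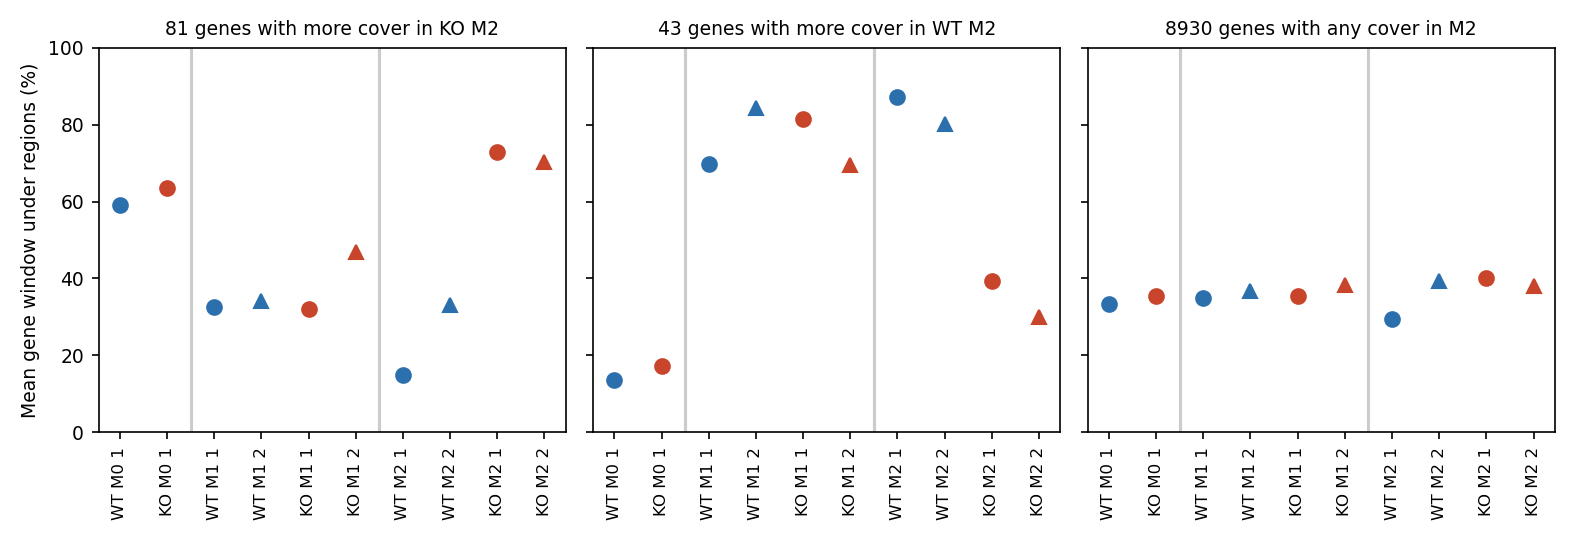
Mean share (%) of the gene window under regions in each of the 10 libraries, for genes with more cover in KO M2, genes with more cover in WT M2 and all genes with any cover in M2 (blue WT, red KO, circles replicate 1, triangles replicate 2). The M0 points (59.1% and 63.5% on the left, 13.7% and 17.2% in the middle) lie on the side of the KO M2 points.

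Marker lists of other cell types also differed between libraries. Lymphoid markers had 50% or more of the window covered in 9 and 14 of 25 genes in WT and in 13 and 13 in KO. Of the 22 with any cover, 8 had both KO above both WT and 4 the reverse, or 36.4% and 18.2%, beside 27.9% and 9.97% of all covered genes. Among them, Zap70, a T cell kinase chosen after its values were seen, had 25.4% and 62.5% in WT and 84.6% and 83.5% in KO. Stromal, endothelial and epithelial markers had 4 and 10 of 22 covered in WT and 10 and 10 in KO, and granulocyte, erythroid and dendritic markers 6 and 10 of 28 against 9 and 7. Macrophage identity genes had 0 in all. In each of these lists WT replicate 1 had the lowest count or shared it. Medians of the log2 difference were 0.66 for lymphoid, 0.83 for stromal, 0.60 for Hox and 0.57 for developmental transcription factor genes, beside 0.64 over all genes. After quantile normalisation they were 0.06, 0.17, -0.03 and -0.06. Olfactory receptors had a median of 0.06, and -0.61 after quantile normalisation.

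The comparison was also deposited by the submitters, with 1049 entries higher in KO and 185 higher in WT in the authors' deposited table of each direction. At a false discovery rate under 0.05 the authors' deposited tables hold 1 and 2 of these. Of the regions in the authors' deposited table of KO enriched entries, 370 were called in all 4 libraries and 423 in both KO and neither WT library. Of those in the authors' deposited table of WT enriched entries, 10 were called in all 4 and 119 in both WT and neither KO library. Of the 45 domains that rose, 12 held a region that the authors' deposited table gives as KO enriched, among them those at Kdm5b, Kdm2a, Sorcs1, Trim66 and Btg3, and 0 held a WT enriched one. Both come from the same libraries, so the overlap is no separate evidence.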

How the data were processed

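H3K27me3 ChIP-seq regions of 10 libraries were used, and 4 (2 WT and 2 KO, IL-4) were compared. Per the submitters' processing notes, the tools were Bowtie2 2.4.2, SAMtools 1.10, HOMER 4.8, deepTools 3.5.1 and DiffBind 2.0.2 with mm10. Per the file headers, the authors called regions per library with HOMER (windows of 1000 bp, joined within 2500 bp, false discovery rate 0.001), with a signal of tags normalised to 10 megatags and a region score. The authors' deposited comparison tables hold log2 folds and p-values. Tags were not whole reads, so no count test was run.

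Autosomal regions were intersected with 1 kb bins, with domains and with 20665 protein-coding genes named from RefSeq (GRCm38.p6). Genes covered by 20% or more of the window in at least 2 libraries were tested. limma 3.58.1 (R 4.3.3) was run on log2 levels (pseudocount 1 for genes) with Benjamini-Hochberg adjustment at 0.05, without a replicate block, after tests on simulated data. Single values had exact permutation tests (Python 3.11.15, scipy 1.17.1). Named genes were the 12 separated genes with the largest gap in kb in each direction (1 gene per run of neighbouring genes), the limma genes with the smallest p, separated genes of the lists and fixed genes. The members and lists were chosen with earlier results of these data known. Other scalings, filters, windows and left-out libraries were tried. Depth ran from 12.6 to 20.9 megatags.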

Additional observations from a re-analysis of the deposited data

Results flagged for a closer look

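The KO against WT difference of 65 domains differed between IL-4 and LPS with interferon-gamma stimulation (limma interaction, adjusted p under 0.05, 11816 domains called in all 8 M1 and M2 libraries), and in 63 of them it was higher in IL-4 macrophages. The median log2 difference was 0.28 in M2 and 0.05 in M1. WT replicate 1 of M2 held 52.9 Mb of regions on the X chromosome, outside the autosomes compared here. WT replicate 1 of M1 held 31.3 Mb there.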

How the results depend on the processing

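The higher density in KO regions and its sign held in every alternative run. The difference ran from 4.15 to 7.94 tags per kb with 1 library left out. In those runs and with the replicate block the sign could not change, because both KO libraries lay above both WT libraries. It was 5.33 tags per kb when scaled to tags outside X regions, a scaling chosen after seeing the data. Covered length changed sign for the upper 50% of regions by score (-2.46 Mb), with X included (-11.8 Mb) and between left-out libraries (-21.2 to 49.8 Mb). The number of regions changed sign with X included (-699.5) and ran from 819.5 to 5200.5 with 1 library left out. With 1 library left out KO-only bins ran from 15000 to 57597 kb and WT-only bins from 13574 to 33927 kb, and under the other alternatives from 10390 to 15006 kb and from 9875 to 15247 kb. The 45 domains became 1 after quantile normalisation, 2 after centring, 107 with regions merged across 2.5 kb, 29 for domains of at least 2 kb, 2399 with M1 libraries in the fit, 0 for summed tags and 524 scaled to tags outside X regions, and 18 to 4074 with 1 library left out. The 38 genes became 0 without the filter, 0 after quantile normalisation, 1 with M1 libraries in the fit, and 0 to 3680 with 1 library left out. The 124 separated genes became 657 at a gap of 10 points, 12 at 50 points, 430 for the upper 50% of regions, and 207 to 1302 with 1 library left out. The cause of these shifts was not tested. The replicate block gave 3638 domains and 513 genes. Replicate numbers did not pair the samples by the labels, and deviations correlated at 0.09 over domains and 0.04 over genes in the 2 pairs. The block left the length difference at 14.3 Mb, the number at 3010 and the density at 6.05. Of 168 settings over 28 named genes, 145 moved by less than the replicate spread and 21 by more. The other 2 changed sign, Ereg (32.7 points) and Hba-a1 (4.75 points), both for the upper 50% of regions. With 1 library left out no gene could move by more, because that shifts a mean by less than the replicate SD. Only the settings with the gene body alone and with the upper 50% of regions could do so.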
